A study of Mus musculus with 17 samples.

Results

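The genes described here are 45 genes of DNA replication and mitosis, chosen by gene symbol from a list of genes of these processes, set among the 25198 genes of the deposited count table. They were compared between ovarian follicles cultured with and without Tyrphostin-AG1478, an inhibitor of the kinase of the epidermal growth factor receptor (EGFR). All follicles were antral follicles of CD1 mice, 16 days old, grown for 8 days in eIVFG, a system in which follicles grow encapsulated outside the body. Each library was made from 3 follicles by Smart-Seq2, which copies whole transcripts and does not tag single molecules, so that the RNA of oocyte, granulosa and theca cells was read together. The Tyrphostin libraries (n = 6) came from follicles held for 4 h with hCG and with Tyrphostin-AG1478 at 10 µM, dissolved in DMSO; hCG is the gonadotropin that starts ovulation in culture. The 11 Control libraries carry the same treatment text in their labels, so whether their follicles received hCG and DMSO is not stated. The labels give batch 1 (6 Control and 3 Tyrphostin libraries) and batch 2 (5 Control and 3 Tyrphostin libraries). They do not say whether libraries of a group came from separate animals or cultures. The p-values therefore measure the spread between these libraries, which may be partly technical.

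Before a cell divides, the licensing factors load the ring of Mcm2 to Mcm7 onto replication origins, cyclin E and cyclin A kinases start S phase, and the sliding clamp Pcna holds the polymerases on the DNA. Cyclin B with Cdk1 then drives mitosis, the spindle checkpoint delays anaphase until chromosomes are attached, and Cdc20 with Ube2c directs the destruction of cyclin B. In growing follicles the dividing cells are mainly granulosa cells. The ovulatory gonadotropin signal is known to end their proliferation as they differentiate, and part of that signal is relayed through EGFR.

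Control 6 was the shallowest library, with 1820545 counts, and Control 8 the deepest, with 8291024. Levels are given as CPM, counts scaled to a common library size after TMM normalization, and 3 counts corresponded to between 0.362 and 1.65 CPM. CPM are not divided by gene length, so levels are compared between libraries and not between genes. In this bulk RNA, fewer cells of a type and less RNA per cell cannot be told apart. Control 9 was the lowest of the 17 libraries for 23 of the 42 genes that could be tested, and Tyrphostin 6 was the highest for 10. Summed over the 45 genes, Control 9 held 450 CPM and Tyrphostin 6 held 1220 CPM, and results that rest on these libraries are given with and without them. Granulosa markers took 3.54% to 4.84% of counts in Control and 4.22% to 5.22% in Tyrphostin libraries, with 3 of 7 tested markers called, all higher in Tyrphostin libraries: Hsd17b1 (log2 fold change 2.64), Cyp19a1 (2.35) and Fshr (0.83). Inha was at -0.05, and Amh, a defining granulosa marker, had fewer than 10 counts in every library. Oocyte markers took 0.00234% to 0.0183% and 0.0031% to 0.0393%, with 0 of 9 called, and Dazl, Ddx4 and Figla had fewer than 10 counts in every library. Theca and stroma markers took 0.0236% to 0.218% and 0.0301% to 0.373%, with 0 of 9 called. Endothelial markers took at most 0.00811% and immune markers at most 0.103% of counts, with 0 of 2 called in each list. None of these 5 summed shares differed between the groups by a two-sided exact test that permuted labels within batches (p from 0.0706 to 0.955, adjusted p from 0.353 to 0.955). The share of oocyte markers was tried as a covariate: 2 members (Mcm3 and Pcna) were then called, beside 9.07% of all genes, and the median of the 42 was 0.24. The part of the other 4 shares in the results below was not tested.

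Most of these genes were not distinguishable between the groups, and those that were did not share a direction. With both batches fitted together and batch as a term, 42 of the 45 genes passed the filter on low counts and 3 were called, that is, had an adjusted p under 0.05 (edgeR quasi-likelihood test, Benjamini-Hochberg over all 9603 genes tested). Mcm3, a subunit of the replicative helicase, and Nusap1, a protein that bundles spindle microtubules, were higher in Tyrphostin libraries. Pcna, the replication clamp, was lower. The 3 calls are 7.14% of the tested members, against 10.6% of all genes tested (4.35% called higher and 6.25% called lower). Of the 42 log2 fold changes (Tyrphostin against Control), 28 were above 0 and 14 below, with a median of 0.34 and a range from -0.66 to 0.91. Over all genes tested 50% were above 0 and the median was 0.00. At an unadjusted p under 0.05 there were 12 members, 11 higher and 1 lower, where 23.7% of all genes tested passed. For 34 of the 42, the 95% interval lay wholly within 1 log2 unit of no difference, so a change of 1 log2 unit lay outside their intervals. Cdc6, E2f1 and Gins1 had at most 21 counts in any library and were not tested.

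**Figure D1:**
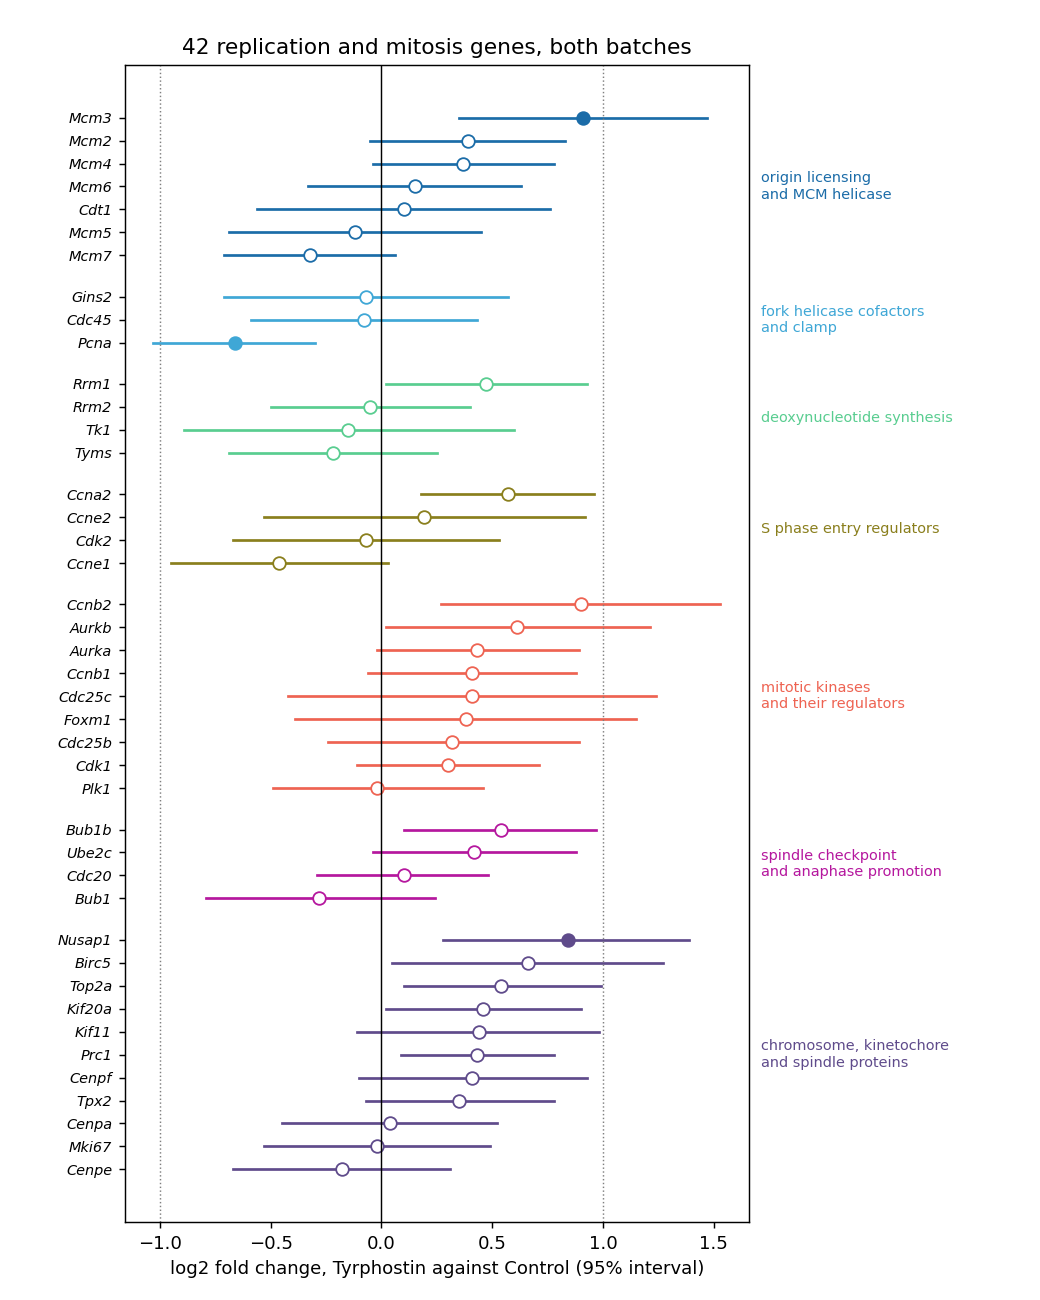
Log2 fold change of Tyrphostin against Control (x axis) for the 42 tested genes (rows, coloured by role) with 95% intervals, filled points being called at an adjusted p under 0.05. The filled points are Mcm3 (0.91), Nusap1 (0.84) and Pcna (-0.66), and dotted lines mark 1 log2 unit on either side of 0.

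The sign of some replication genes changed with total-count scaling of the libraries. The 21 genes of licensing, fork, deoxynucleotide and S phase roles included 18 that were tested, of which 8 were above 0 with a median log2 fold change of -0.06. The 24 mitosis genes were all tested, and 20 were above 0 with a median of 0.41. Scaling by RLE or by upper quartiles, 2 other methods, also left 8 of the 18 replication genes above 0 (medians -0.06 and -0.04). With total-count scaling, which moved the median of all genes from 0.00 to 0.15, the counts above 0 were 14 of 18 and 22 of 24 and the medians 0.07 and 0.54. Under that scaling 5 members were called, all higher (Ccna2, Ccnb2, Mcm3, Nusap1 and Prc1), beside 11.6% of all genes, and the fall of Pcna was no longer called (log2 fold change -0.52, edgeR adjusted p = 0.0687). The summed level of the mitosis genes was 447 ± 108 CPM in Control (SD, n = 11) and 573 ± 136 CPM in Tyrphostin libraries (SD, n = 6). The summed level of the replication genes was 301 ± 64.1 and 334 ± 81.5 CPM. The Tyrphostin libraries lay within the Control range of 191 to 406 CPM for the replication sum except Tyrphostin 6 (472 CPM), and the 2 groups overlapped for the mitosis sum too.

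**Figure D2:**
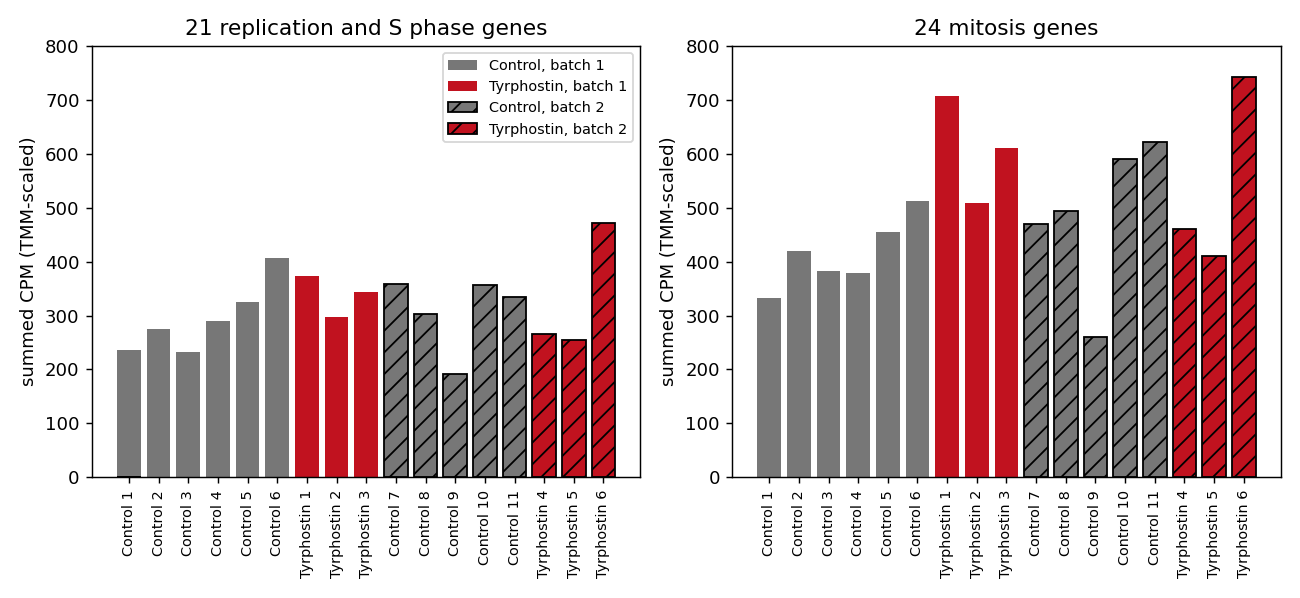
Summed TMM-scaled CPM (y axis) of the 21 replication and S phase genes (left) and the 24 mitosis genes (right) in each of the 17 libraries, hatched for batch 2. Control 9 is lowest in both panels (191 and 260 CPM) and Tyrphostin 6 highest (472 and 743 CPM).

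Among the origin licensing and helicase genes, Mcm3 was called and 5 of the 7 tested were above 0 (median log2 fold change 0.15). The level of Mcm3 had a minimum of 5.21, a median of 14.5 and a maximum of 26.1 CPM in the 11 Control libraries. In Tyrphostin libraries it was 32.9, 16.3 and 27.7 CPM in batch 1 and 22.6, 16.7 and 51.3 CPM in batch 2. All 6 Tyrphostin values lay above the Control median, 3 lay above every Control value, and the groups overlapped. That median pools both batches. In batch 2 the Control values were 21.8, 17.5, 5.21 (Control 9), 26.1 and 16.9 CPM, and Tyrphostin 5 (16.7 CPM) lay above Control 9 alone. The log2 fold change was 0.91 ± 0.27 (SE; 95% interval 0.35 to 1.47; edgeR adjusted p = 0.0319). Mcm3 lies at chr1:20802968-20820312 on the minus strand (GRCm38, GENCODE M21) and shares no exon base with another annotated gene. The call was kept in 11 of the 17 fits that each left out 1 library and was lost without Control 1, 2 or 3 or Tyrphostin 1, 3 or 6, with the highest adjusted p without Tyrphostin 6 (0.70, edgeR adjusted p = 0.144). It was also lost without the batch term (adjusted p = 0.0632) and with each set of Control libraries that share the first number of their library name summed to 1 (adjusted p = 0.133).

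The other subunits of the same ring did not pass the test. Mcm2 changed from 12.3 ± 3.67 CPM in Control (SD, n = 11) to 16.5 ± 6.56 CPM in Tyrphostin libraries (SD, n = 6), a log2 fold change of 0.39 (95% interval -0.05 to 0.83). For Mcm4 it was 0.37 (-0.04 to 0.78), for Mcm6 0.15 (-0.33 to 0.63), for Mcm5 -0.12 (-0.69 to 0.45) and for Mcm7 -0.32 (-0.71 to 0.06). The subunits, which enter the ring together, therefore had estimates on both sides of 0, and whether Mcm3 differs from them was not tested. Cdt1, which brings the ring to the origin, was at 0.10 ± 0.32 (SE). Its partner Cdc6 was not tested, at 1.25 ± 0.953 CPM (SD, n = 11) and 2.21 ± 0.582 CPM (SD, n = 6), with 0 to 21 counts per library. Of the Mcm7 exon bases 12.6% are shared with other annotated genes, and whether counting used strand is not given in the sources used here.

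Promoters of these genes are shown because replication and mitosis genes are known to be controlled by different elements. Their medians were -0.06 and 0.41 over both batches, but 0.11 and 0.08 within batch 2. The difference between the 2 sets was not tested. E2F factors, released at the start of S phase, bind sites such as TTTCCCGC, TTTCGCGC, TTTGCCGC and TTTGGCGC. RefSeq promoter windows (GRCm38.p6, from 250 bases before to 50 after the transcription start, 300 bases) matched 35 of the 45 genes by symbol. One of these 4 words, on either strand, occurred in 8 of the 35 (22.9%), against 2.6% of 27025 genes in the table. The 8 were Cdc6, Cdt1, Mcm3, Mcm5, Mcm6, Mcm7 and Cdk2 among the 16 matched replication genes (43.8%), and Cdk1 among the 19 matched mitosis genes. The word CCAAT, to which NF-Y binds, occurred in 27 of the 35 (77.1%) against 41.1%. Stretches of 3 promoters follow, from RefSeq, with E2F words and CCAAT (or its complement ATTGG) in capitals; E2F words can overlap, as in Mcm5. The first is Mcm3 from 200 bases before the start to the base before it (chr1:20820313-20820512, minus strand), with 3 CCAAT words. The second is Mcm3 from 17 to 46 bases downstream of the start (chr1:20820266-20820295, minus strand), with E2F words facing both ways. The others are Mcm5 (chr8:75109334-75109393, plus strand) and Mcm6 (chr1:128359719-128359778, minus strand).
Mcm3 before the start: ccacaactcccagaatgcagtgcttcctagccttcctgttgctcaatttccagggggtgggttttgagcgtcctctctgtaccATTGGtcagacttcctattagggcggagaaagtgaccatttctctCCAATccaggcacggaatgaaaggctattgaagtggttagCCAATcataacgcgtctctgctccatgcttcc
Mcm3 after the start: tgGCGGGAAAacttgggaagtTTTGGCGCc
Mcm5: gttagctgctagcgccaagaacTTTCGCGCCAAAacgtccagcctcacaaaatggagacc
Mcm6: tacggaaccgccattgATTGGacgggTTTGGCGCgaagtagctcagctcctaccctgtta
The words stood in promoters of genes with estimates above 0 (Mcm3, 0.91) and below 0 (Mcm5, -0.12; Mcm7, -0.32). A match describes letters only and does not show binding.

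Among the fork genes, Pcna was lower, and all 3 tested were below 0 (median log2 fold change -0.08). Pcna had a minimum of 10.4, a median of 14.3 and a maximum of 20.3 CPM in Control libraries. In Tyrphostin libraries it was 10.5, 9.32 and 13.1 CPM in batch 1 and 7.27, 5.66 and 8.21 CPM in batch 2. All 6 values lay below the Control median, and in batch 2 all 3 lay below every Control value of that batch. The log2 fold change was -0.66 ± 0.18 (SE; 95% interval -1.03 to -0.30; edgeR adjusted p = 0.0159). Pcna lies at chr2:132249162-132253314 on the minus strand (GRCm38, GENCODE M21), with no exon base shared with another annotated gene. The call was kept in 17 of 17 fits that left out 1 library (-0.74 to -0.59). Besides total-count scaling, it was lost when all expressed genes were tested without a filter (-0.61, edgeR adjusted p = 0.113) and without the batch term (adjusted p = 0.0508). It was also lost with only Control 1 to 6 and Tyrphostin 1 to 6 (edgeR adjusted p = 0.241). Those Control libraries are all of batch 1, so that fit compares the groups within batch 1 alone.

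Cdc45 and Gins2, which turn the loaded ring into a moving helicase, were at -0.08 ± 0.25 and -0.07 ± 0.31 (log2 fold change, SE). Gins2 shares 67.3% of its exon bases with Gse1 on the other strand, so its counts are uncertain. Gins1 was at 0.982 ± 0.541 CPM (SD, n = 11) and 1.25 ± 0.778 CPM (SD, n = 6) and was not tested.

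None of the 4 genes of deoxynucleotide synthesis was called, and 1 was above 0. Rrm1, the large subunit of ribonucleotide reductase, had a log2 fold change of 0.47 (95% interval 0.02 to 0.93; edgeR adjusted p = 0.19). Its 6 Tyrphostin values ran from 19 to 42 CPM, all above the median of the 11 Control libraries (15.1 CPM) but overlapping their range of 10.5 to 32.2 CPM. In batch 1 the Tyrphostin values were 26, 19 and 25.8 CPM, against 10.5 to 21.3 CPM in Control. In batch 2 they were 20.7, 19.9 and 42 CPM, against 26.2, 21.7, 10.9, 29.7 and 32.2 CPM in Control. Its partner Rrm2 was at -0.05 (-0.50 to 0.40), thymidylate synthase (Tyms) at -0.22 (-0.69 to 0.25) and thymidine kinase (Tk1) at -0.15 (-0.89 to 0.60).

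Of the regulators of S phase entry, none of the 4 tested was called in both batches together. Ccna2, the cyclin of S phase and early mitosis, had a minimum of 22.2, a median of 36.7 and a maximum of 50.4 CPM in Control libraries. In Tyrphostin libraries it was 89.8, 49.4 and 69.3 CPM in batch 1 and 34.0, 30.7 and 59.9 CPM in batch 2. The high values were those of Tyrphostin 1, 3 and 6, and the others lay inside the Control range. The log2 fold change was 0.57 ± 0.19 (SE; 95% interval 0.18 to 0.96; edgeR adjusted p = 0.0547), and 12.5% of its exon bases are shared with Exosc9. Cyclin E1 (Ccne1), which with Cdk2 opens S phase, was at -0.46 (-0.95 to 0.03); its 6 Tyrphostin values, 3.23 to 4.04 CPM, all lay below the Control median of 5.22 CPM and inside the Control range of 2.17 to 6.90 CPM. Cyclin E2 (Ccne2) was at 0.19 (-0.53 to 0.92) and Cdk2 at -0.07 (-0.67 to 0.53). The transcription factor E2f1 was at 1.56 ± 1.83 CPM (SD, n = 11) and 1.18 ± 0.682 CPM (SD, n = 6) and was not tested.

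**Figure D3:**
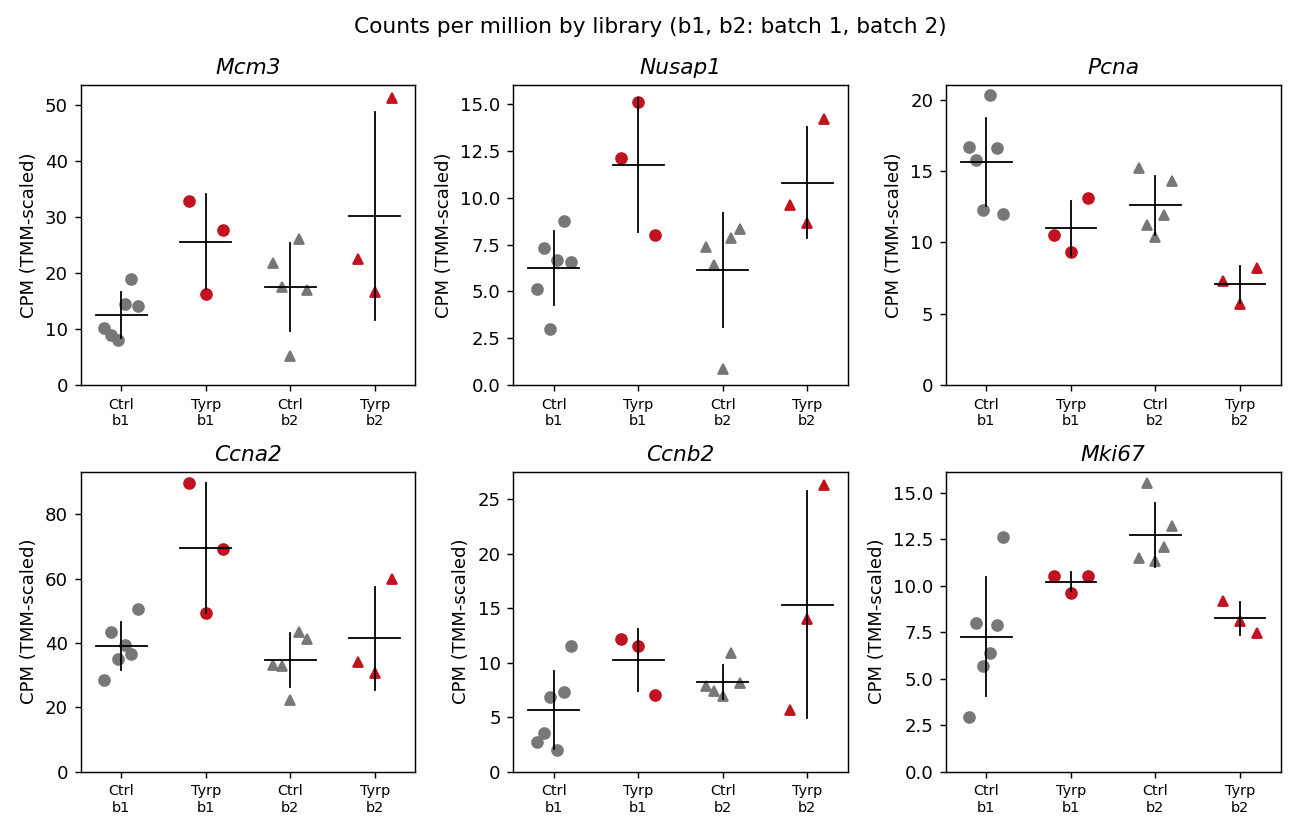
TMM-scaled CPM (y axis) of 6 genes in each library, by group and batch (circles batch 1, triangles batch 2, Control grey, Tyrphostin red), with the mean as a horizontal line and 1 SD as a vertical line. Tyrphostin values of Pcna all lie below the Control median of 14.3 CPM, those of Nusap1 (8.00 to 15.1 CPM) all above the Control median of 6.67 CPM, and those of Mki67 lie above the batch 1 Control mean and below all batch 2 Control values.

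None of the 9 mitotic kinases and their regulators was called, while 8 of 9 were above 0 (median log2 fold change 0.41). Ccnb2, a B-type cyclin, had a minimum of 2.03, a median of 7.34 and a maximum of 11.5 CPM in Control libraries. In Tyrphostin libraries it was 12.2, 11.5 and 7.02 CPM in batch 1 and 5.62, 14.0 and 26.3 CPM in batch 2. Tyrphostin 6 stood highest, while Tyrphostin 3 and 4 lay below the Control median. The log2 fold change was 0.90 ± 0.30 (SE; 95% interval 0.27 to 1.53; edgeR adjusted p = 0.0588), and 0.63 without Tyrphostin 6 (adjusted p = 0.255). Cdk1, the kinase that cyclin B activates, was at 0.30 (-0.11 to 0.71), and Ccnb1 at 0.41 (-0.06 to 0.88). The phosphatases that switch Cdk1 on, Cdc25b and Cdc25c, were at 0.32 (-0.24 to 0.89) and 0.41 (-0.42 to 1.24). Aurkb, the kinase of the chromosomal passenger complex, was at 0.61 (0.02 to 1.21; edgeR adjusted p = 0.193), with 6 of 6 Tyrphostin values above the Control median of 3.94 CPM. The spindle pole kinase Aurka was at 0.43 (-0.02 to 0.89), the polo kinase Plk1 at -0.02 (-0.49 to 0.46) and Foxm1, a transcription factor of mitosis genes, at 0.38 (-0.39 to 1.15).

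None of the 4 genes of the spindle checkpoint and anaphase promotion was called, and 3 were above 0 (median 0.26). The checkpoint protein Bub1b was at 0.54 (95% interval 0.10 to 0.97; edgeR adjusted p = 0.109), with 5 of 6 Tyrphostin values above the Control median of 10.7 CPM and Tyrphostin 2 below it at 8.39 CPM. The checkpoint kinase Bub1 was at -0.28 (-0.79 to 0.24), Cdc20 at 0.10 (-0.29 to 0.48) and the ubiquitin-conjugating enzyme Ube2c at 0.42 (-0.04 to 0.88). Ube2c shares 22.8% of its exon bases with Tnnc2.

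Of the 11 chromosome, kinetochore and spindle proteins, Nusap1 was called and 9 were above 0 (median log2 fold change 0.43). Nusap1 had a minimum of 0.869 (Control 9), a median of 6.67 and a maximum of 8.75 CPM in Control libraries. In Tyrphostin libraries it was 12.1, 15.1 and 8.00 CPM in batch 1 and 9.60, 8.63 and 14.2 CPM in batch 2. All 6 values lay above the Control median and 4 above every Control value, and in batch 2 the groups did not overlap. The log2 fold change was 0.84 ± 0.27 (SE; 95% interval 0.28 to 1.39; edgeR adjusted p = 0.0465). The call was kept in 7 of 17 fits that left out 1 library, including the fit without Control 9 (adjusted p = 0.0319), and lost without Control 1, 2, 3, 4, 6 or 8 or Tyrphostin 1, 2, 4 or 6 (adjusted p up to 0.138). It was also lost without the batch term (adjusted p = 0.0705), with the share of oocyte markers as a covariate (0.0794) and with the Control sets summed (0.107). Nusap1 lies at chr2:119618298-119651244 on the plus strand (GRCm38, GENCODE M21) and shares 4.24% of its exon bases with Oip5.

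The other spindle and chromosome proteins gave values that did not pass the test. Top2a, the topoisomerase that untangles sister chromatids, was at 92.9 ± 32.7 CPM in Control (SD, n = 11) and 136 ± 38.3 CPM in Tyrphostin libraries (SD, n = 6), a log2 fold change of 0.54 (95% interval 0.10 to 0.99; edgeR adjusted p = 0.116). Birc5 (survivin), a partner of Aurkb, was at 0.66 (0.05 to 1.27) and Prc1, which bundles the central spindle, at 0.43 (0.09 to 0.78). The motor proteins Kif20a and Kif11 were at 0.46 (0.02 to 0.90) and 0.44 (-0.11 to 0.98), and Kif20a shares 29.3% of its exon bases with Cdc23. The spindle assembly factor Tpx2 was at 0.35 (-0.07 to 0.78). Of the centromere and kinetochore proteins, Cenpf was at 0.41 (-0.10 to 0.93), Cenpa, the centromeric histone, at 0.04 (-0.45 to 0.52) and Cenpe at -0.18 (-0.67 to 0.31). Mki67, the proliferation antigen, was at -0.02 (-0.53 to 0.49).

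The promoters of the mitosis genes are shown for another word. The cell cycle homology element, TTTGAA, is known to be bound by complexes that hold these genes silent until G2. It occurred on either strand in 13 of the 19 matched mitosis genes (68.4%), in 2 of the 16 matched replication genes and in 20.2% of the 27025 genes. These shares come from letters alone, and the hexamer is short. Windows of 60 bases from 3 of these promoters follow, from RefSeq (GRCm38.p6), with TTTGAA (or its complement TTCAAA) and CCAAT (or ATTGG) in capitals. They are Mki67 from 125 to 66 bases before the start (chr7:135716445-135716504, minus strand), and Top2a (chr11:99024190-99024249, minus strand) and Kif11 (chr19:37376322-37376381, plus strand), both in the 60 bases just before it.
Mki67: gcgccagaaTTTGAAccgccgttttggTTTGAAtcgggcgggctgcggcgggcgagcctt
Top2a: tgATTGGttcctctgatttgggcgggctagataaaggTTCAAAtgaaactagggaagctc
Kif11: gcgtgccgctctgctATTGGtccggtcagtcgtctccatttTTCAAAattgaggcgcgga
Mki67 holds the element 2 times in this window and had an estimate near 0, while Top2a was at 0.54 and Kif11 at 0.44.

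The 2 batches did not give the same picture. Within batch 1, Ccna2 (log2 fold change 0.85 ± 0.23 SE, edgeR adjusted p = 0.032) and Mcm3 (1.05 ± 0.29, adjusted p = 0.0368) were called higher and no member was called lower, where 6.73% of all genes tested were called (2.94% higher and 3.79% lower). There 34 of 42 estimates were above 0, with a median of 0.40, against 51.5% of all genes above 0, and 23 of the 24 mitosis genes were above 0, with a median of 0.71. Of the theca and stroma markers in the same comparison, 8 of 9 were below 0 in batch 1 (median -0.97), with Col1a1 (-1.20) and Col1a2 (-1.28) called lower. The 1 marker above 0 in batch 1 was at 1.27, with an unadjusted edgeR p under 0.05 but no call. In batch 2 all 9 were above 0 (median 0.57) and 0 were called. The interaction estimates of the 9 markers ran from -1.15 to 2.31, with a median of 1.54. There edgeR called 0 of the markers, and 4 had an unadjusted p under 0.05. Their part in the batch 1 values was not tested. Leaving out 1 library gave 0 to 4 calls in batch 1, where 394 to 687 of all genes were called. The calls were 0 without Control 1, 2, 3 or 4 or Tyrphostin 1 or 3, 1 without Control 5, and 4 without Control 6. Within batch 2, 0 members were called by edgeR, by DESeq2 and by limma-voom. Of all genes there, edgeR called 0.621%, DESeq2 3.08% and limma-voom 0.641%. In that batch 2 members had an unadjusted p under 0.05, both lower, where 10.7% of all genes did. There 24 of 42 estimates were above 0, against 48.9% of all genes, and the median was 0.08. Of the replication genes 10 of 18 were above 0 (median 0.11), and of the mitosis genes 14 of 24 (median 0.08). The batch 2 median was -0.06 without Control 9, -0.17 without Tyrphostin 6 and 0.31 without Tyrphostin 5.

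The difference between the batches was itself tested as an interaction. By edgeR 0 of the 42 members and 0 of all 9603 genes were called, and 1 member and 342 genes (3.56%) had an unadjusted p under 0.05. DESeq2 and limma-voom also called 0 members and 0 of all genes. The interaction estimate (batch 2 minus batch 1) was below 0 for 36 of the 42, with a median of -0.33. Over all genes tested it was below 0 for 5042 of 9603, with a median of -0.03. Mki67 had the lowest, -1.16 ± 0.43 (SE, unadjusted edgeR p = 0.0128). Its level in batch 1 was 10.5, 9.63 and 10.5 CPM in Tyrphostin libraries, against a range of 2.97 to 12.6 CPM in 6 Control libraries. In batch 2 it was 9.19, 8.09 and 7.46 CPM, below all 5 Control values (11.3 to 15.5 CPM). The sign of the log2 fold change was the same in both batches for 26 of 42 members (61.9%), and for 68% of the 9160 genes tested in both.

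**Figure D4:**
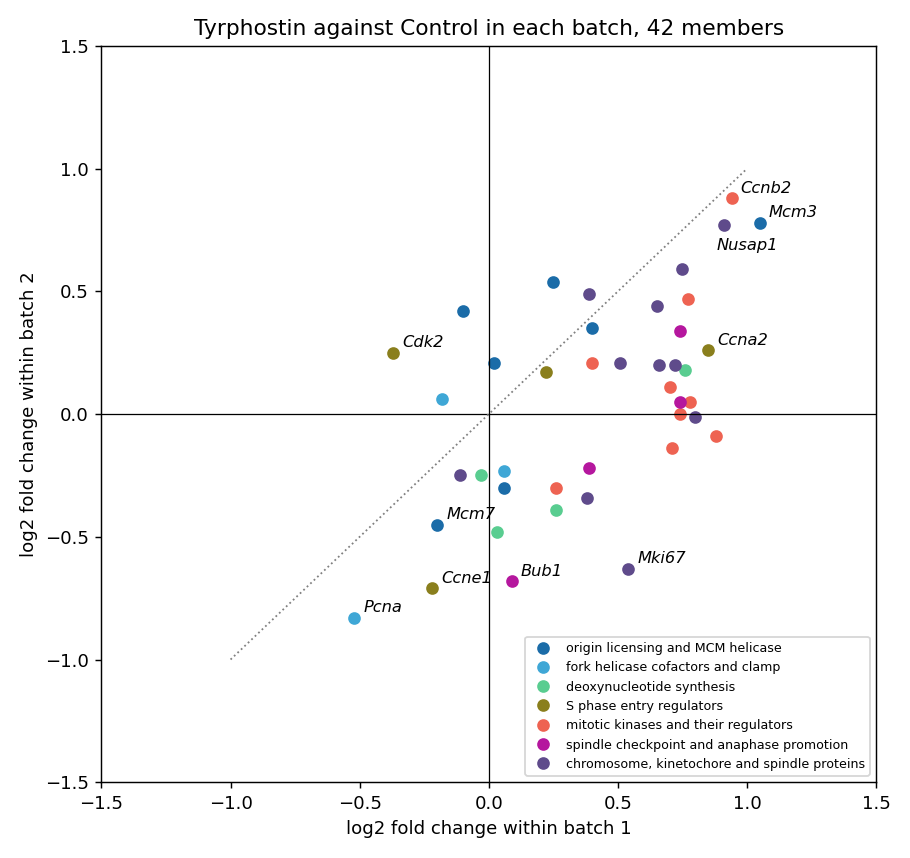
Log2 fold change of Tyrphostin against Control within batch 1 (x axis) and within batch 2 (y axis) for the 42 tested genes, coloured by role, with a dotted line of equality. Most points lie below the line: 36 of 42 interaction estimates are below 0, with Mki67 (0.54 in batch 1, -0.63 in batch 2) the farthest. Over all genes tested, 5042 of 9603 interaction estimates are below 0.

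No member separated the 11 Control from the 6 Tyrphostin libraries completely, as 0.51% of all tested genes did upward and 1% downward. Within batch 1, Ccnb1, Birc5 and Prc1 were higher in every Tyrphostin library than in every Control library (5% of all genes upward, 6.3% downward). Within batch 2, Nusap1 was higher and Pcna and Mki67 lower without overlap (4.22% upward, 5.08% downward). These are 3 of 42 members (upward, batch 1), 1 (upward, batch 2) and 2 (downward, batch 2), beside those shares.

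**Figure D5:**
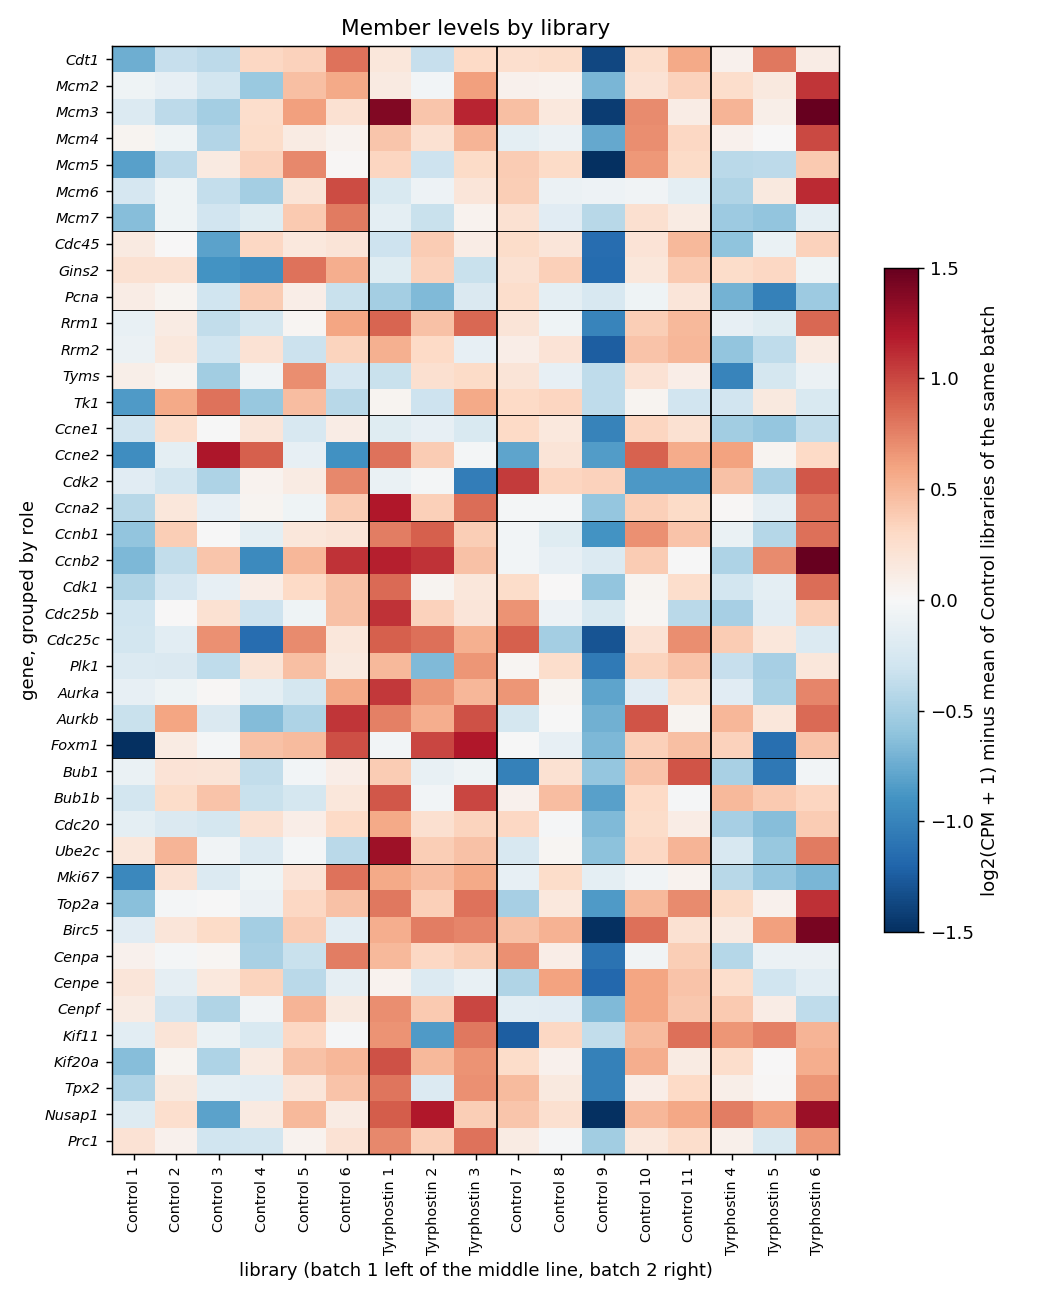
Level of each tested gene (rows, by role) in each library (columns), as log2(CPM + 1) minus the mean of the Control libraries of the same batch; colours end at 1.5 units on either side of 0. Control 9 is above the Control mean of its batch for 1 of 42 genes (median deviation -0.78). Tyrphostin 1, 3 and 6 are mostly red (33, 34 and 30 genes above that mean, medians 0.57, 0.44 and 0.41). So are Control 6, 10 and 11 (34, 36 and 36 genes, medians 0.27, 0.32 and 0.29).

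The Control libraries of the 2 batches were compared to show how these genes vary between batches within 1 group. By edgeR 0 of 42 members were called between Control libraries of batch 2 and batch 1 (11% of 9128 genes were, 5.5% higher and 5.5% lower), 30 estimates were above 0, with a median of 0.26 (53.7% of all genes were above 0), and 8 had an unadjusted p under 0.05, where 25.7% of all genes did. DESeq2 called 3 members (Kif20a, Mki67 and Rrm1, all higher in batch 2), where it called 14.9% of all genes, and limma-voom called Mki67, where it called 10.2%. Without Control 9, edgeR called 5: Bub1b, Ccnb1, Cdc20, Kif20a and Rrm1, all higher in batch 2, where 11.3% of all genes were called.

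Leaving out both Control 9 and Tyrphostin 6, an alternative chosen after seeing the data, left 1 call over both batches (Pcna), beside 7.03% of all genes. There 27 of 42 estimates were above 0, with a median of 0.16. Leaving out Control 9 alone left Mcm3, Nusap1 and Pcna called, beside 9.79% of all genes, with a median of 0.29. Leaving out Tyrphostin 6 alone left Pcna, beside 7.39% of all genes, with a median of 0.21. Across the 17 single omissions the members called ranged from 1 to 5, and all genes called from 708 to 1314. Only Pcna was called without Control 1, 2 or 3 or Tyrphostin 1 or 6, and Ccna2, Mcm3, Nusap1, Pcna and Prc1 were called without Tyrphostin 5.

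Further genes of the same processes, from lists that exclude the 45, were read the same way. Of 31 tested genes of replication forks, checkpoints and chromatin assembly (of 38 listed), 1 was called: Rpa1, a subunit of the complex that coats single-stranded DNA, rose from 7.36 ± 3.19 CPM in Control (SD, n = 11) to 13.6 ± 5.90 CPM in Tyrphostin libraries (SD, n = 6), with a log2 fold change of 0.86 and an edgeR adjusted p = 0.00545. Of these 31, 24 were above 0, with a median of 0.21, and the 1 call is 3.23% of them, beside 10.6% of all genes tested. Of 48 tested mitosis genes (of 50 listed), 4 rose and 2 fell, and 36 were above 0, with a median of 0.23. These 6 calls are 12.5% of the list, beside 10.6% of all genes tested (4.35% higher and 6.25% lower). The kinetochore protein Spc25 (log2 fold change 1.14), the mitotic kinase Pbk (1.12), the spindle protein Hmmr (0.73) and the condensin subunit Ncaph (0.55) rose. The Cdk-binding protein Cks2 (-1.20, edgeR adjusted p = 0.00855) and the motor protein Kif18b (-0.96, adjusted p = 0.0324) fell. The 8 genes named from the 3 further lists had the same sign in both batches. They were chosen by the fit over these same batches, which favours such agreement, so it is no separate support. Some of these calls rested on single libraries. Pbk, Cks2 and Rpa1 stayed called in 17 of 17 single omissions, and Spc25 was lost without Tyrphostin 6 (0.84, edgeR adjusted p = 0.0611). Hmmr was called in 6 of 17 and was lost without Control 1, 2, 4, 5, 8, 9 or 11 or Tyrphostin 1, 2, 5 or 6 (adjusted p up to 0.166). Ncaph was called in 5 of 17 and was lost without Control 1, 2, 4, 5, 8, 9 or 10 or Tyrphostin 1, 2, 3, 4 or 6 (adjusted p up to 0.129). Kif18b was called in 9 of 17 and was lost without Control 3, 5, 10 or 11 or Tyrphostin 1, 2, 3 or 5 (adjusted p up to 0.0891). Without the batch term, the adjusted p was 0.091 for Rpa1, 0.0552 for Cks2, 0.0612 for Hmmr, 0.074 for Ncaph and 0.0512 for Kif18b.

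The last list of 15 genes held D-type cyclins, inhibitors of cyclin-dependent kinases, Cdk4, Cdk6, Rb1, Rbl1 and Rbl2. Of the 10 tested, Ccnd2 was called (10%, beside 10.6% of all genes tested). Ccnd2, the cyclin that granulosa cells use to enter the cycle in response to follicle-stimulating hormone, was at 62.8 to 495 CPM in Control libraries (median 86.1) and 147 to 1110 CPM in Tyrphostin libraries (median 381). The ranges overlapped. Its log2 fold change was 1.43 ± 0.21 (SE, edgeR adjusted p = 8.71e-05), 1.42 in batch 1 and 1.46 in batch 2, and it stayed called in 17 of 17 single omissions but not without the batch term (adjusted p = 0.0699). Of the 10 genes, 3 were above 0, with a median of -0.12.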

How the data were processed

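Gene expression was measured by bulk RNA-seq in 17 libraries. The table the authors deposited holds raw counts by gene symbol, made with STAR and HTSeq on GRCm38 per the submitters' processing notes; versions, annotation and strand setting are not given in the sources used here. Columns were matched to samples by the names in the labels.

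Counts were analysed in edgeR 4.0.16 (R 4.3.3) by filterByExpr on treatment (batch for the comparison of Control libraries), TMM, estimateDisp, robust glmQLFit and the quasi-likelihood F test, with batch as a term over all 17 libraries and with a threshold of 0.05 on the Benjamini-Hochberg adjusted p over all genes tested. The same test was run within batches, for the interaction and between Control batches. The SE is the log2 fold change divided by the square root of F. CPM use TMM-scaled library sizes. Marker shares were compared over 4704 arrangements of labels within batches. All 45 members are reported by role, and of the other lists the called genes. Members and lists were chosen with earlier results of these data known. Among the 31 pairs of replicates within a batch, chi-square over degrees of freedom was 12.5 to 92.4, above sampling noise in each, so none was merged. This does not show whether the libraries came from separate animals or cultures. Library totals of 1820545 to 8291024 counts set the precision, and floors of 3 counts reflect counting error alone, as PCR copies of 1 molecule are counted apart. Promoter words were counted in RefSeq windows (GRCm38.p6), and exon overlaps in GENCODE M21. The code was tested on simulated data. Alternatives were DESeq2 1.42.0, limma-voom with limma 3.58.1, scaling by RLE, upper quartiles or total counts, other filters, thresholds and covariates, Control libraries summed by set, a replicate block, omission of each library, and 2 choices added after seeing the data. Gmnn was not analysed here.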

Additional observations from a re-analysis of the deposited data

Results flagged for a closer look

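A sample was singled out where its gap to the nearest other library of its group, divided by the range of the group, passed Dixon's 95% critical value. Of 144 groups of 5 or 6 libraries searched, 19 passed, where chance gives about 7.2; 13 of them also passed on a log2 scale. Control 9 was the lowest batch 2 Control for Cdt1 (0.434 CPM), Mcm5 (3.04 CPM), Cdc45 (2.61 CPM), Gins2 (1.30 CPM), Ccne1 (2.17 CPM) and Nusap1 (0.869 CPM). Tyrphostin 6 was the highest Tyrphostin library for Mcm2 (28.9 CPM), Mcm4 (43.5 CPM), Mcm6 (64.3 CPM) and Rrm1 (42 CPM). Control 6, which also had the lowest total of batch 1 Control libraries (1820545 counts), was the highest of them for Mcm6 (65.1 CPM), Aurka (30.1 CPM) and Cenpa (23.5 CPM). Control 3 was the lowest of batch 1 for Cdc45 (3.89 CPM), Control 7 the highest of batch 2 for Mcm6 (37.8 CPM), and Tyrphostin 2 the lowest Tyrphostin library for Bub1b (8.39 CPM). Among library measures, Tyrphostin 5 had the highest share of theca and stroma markers (0.373% of counts) and Control 7 the lowest share of granulosa markers in batch 2 Control (3.54%).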

How the results depend on the processing

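Percentages here are the shares of all genes called in the same fit. Over both batches the 3 calls (10.6%) became 5 with total-count scaling (5 higher, 11.6%) and 5 with DESeq2 (4 higher and 1 lower, 13.7%). They became 1 with Control libraries summed by set (6.91%) and 0 without the batch term (6.45%, 619 genes). They were also 0 at an adjusted p under 0.01 (4.98%, 478 genes) or with a change of 1 log2 unit required (4.69%, 450 genes). They were 4 with upper-quartile scaling (10.6%), 4 without a filter (4.28%) and 2 with the share of oocyte markers as a covariate (9.07%). Omitting 1 library gave 1 to 5 calls (708 to 1314 of all genes), and omitting both Control 9 and Tyrphostin 6 gave 1 (7.03%). Of the 39 members not called, 5 were called under some setting (Ccna2, Ccnb2, Prc1, Kif20a and Top2a) and 15 changed sign. Those 15 include Tk1, counted only because its highest estimate was 0 after rounding. Within batch 1 the 2 calls (6.73%) became 5 with total counts (7.67%), 4 with DESeq2 (9.81%) and 4 without a filter (4.4%). They became 0 at an adjusted p under 0.01 (2.99%) and 1 when a change of 1 log2 unit was required (5.47%). Omitting 1 library gave 0 to 4 (394 to 687 of all genes). Between Control batches the 0 calls (11%) became 3 with total counts (13%), 3 with DESeq2 (14.9%), 1 with limma-voom (10.2%) and 2 without a filter (5.85%). Omitting 1 library gave 0 to 5 (660 to 1063 of all genes): 1 without Control 5, 2 without Control 6 and 5 without Control 9. Within batch 2 each setting run gave 0, where the shares of all genes ran from 0.108% (without Tyrphostin 6) to 3.08% (DESeq2). For the interaction each setting also gave 0 members, beside 0 of all genes, except without a filter (0.365%). The cause of these shifts was not tested.

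Replicate numbers 1 to 6 exist in both groups, but numbers 4 to 6 lie in different batches. Deviations of same-numbered libraries correlated at 0.50, 0.33, 0.40, 0.01, -0.14 and -0.07, so the numbers were not taken as pairs. With the number as a replicate block, 5 members were called, all higher (Ccna2, Kif20a, Mcm3, Nusap1 and Top2a), and 624 of all genes. The same 12 libraries without the block, added after seeing the data, gave 1 (Ccna2) and 601. Control 1 to 6 are all of batch 1, so with batch as a term both fits compare the groups within batch 1 alone. Pcna was at -0.46 (edgeR adjusted p = 0.447) under the block.

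Depth limited Cdc6, E2f1 and Gins1, which had at most 21 counts in any library.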

Other observations

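The tested members varied together across libraries. After removing the group and batch means, the 861 pairs of the 42 members had a median Pearson r of 0.43 over the 17 libraries, and 0.25 without Control 9. The highest r was that of Mcm3 with Cdc20 (0.93), a helicase subunit and an activator of anaphase, and Rrm1 with Prc1 followed (0.91). The lowest was that of Cdk2 with Kif11 (-0.64). Pairs of a replication and a mitosis gene had a median r of 0.43, pairs of mitosis genes 0.45 and pairs of replication genes 0.42. All pairs share the same libraries and the same scaling, and the values are descriptions with no test.

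The 45 genes lie on 16 chromosomes, with 10 on chromosome 2. Of the 45, 17 share exon bases with another annotated gene, and 8 share more than 10% of them.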
